A study of Mus musculus with 27 samples.

Results

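Pancreatic islets of NOD mice labelled homozygous for a Batf3 knockout (NOD.Batf3-/-, called Batf3ko here) were compared with islets of NOD mice with intact Batf3, all aged 8 weeks. The arrays were chosen by their sample titles and not by any measured value, which gave 12 arrays (6 Batf3ko and 6 NOD mice) of 27 in the series. All 19938 genes read by a probe set of a single gene symbol entered the comparison. The series as a whole holds 3 genotypes at 2 ages on whole-transcript microarrays of islet total RNA. Mice labelled NOD.Rag1-/- (Rag1ko), which form no mature T or B cells, are used here as a reference at 8 weeks (6 mice), and Batf3ko and NOD mice of 6 weeks (3 each) as a second age. Every mouse was an untreated female on the NOD/ShiLt background kept in a barrier facility, and the series text calls the mice biological replicates. The labels do not say how the Batf3 allele was made or how far it was bred onto NOD.

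Batf3 is an AP-1 family transcription factor needed for the development of the cross-presenting dendritic cells, which display captured antigen on MHC class I molecules to CD8 T cells. In NOD mice, lymphocytes and myeloid cells gather around and inside the islets, and the insulin-producing beta cells are later lost. Interferon-gamma from activated T cells induces antigen presentation genes, guanylate-binding GTPases and the chemokines Cxcl9 and Cxcl10, which attract further T cells.

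Values are log2 levels from the deposited table, given as the mean ± SD of 6 mice or as the lowest, median and highest mouse. Differences are Batf3ko minus NOD ± SE from limma, and a gene is said to rise, fall or be called where its p-value adjusted over all genes was under 0.05. The number of arrays limits the precision. Between the 12 arrays the correlation over all genes ranged from 0.9754 to 0.9911, and no pair held identical values. The islet hormone genes checked the tissue: Ins2 (12.56 ± 0.05 in Batf3ko and 12.52 ± 0.05 in NOD), glucagon (Gcg, 13.03 ± 0.03 and 13.05 ± 0.05) and Iapp (12.25 in both) ranked 7, 3 and 10 among all genes by mean level. At such levels a probe set may have little room to rise.

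Promoters of the genes at the centre of the comparison are shown first, from RefSeq and the GRCm38.p6 assembly, as the 250 bases before the start of transcription, read on the strand of the gene. Capitals mark matches on either strand to GAAANNGAA (the core of the interferon-stimulated response element) or to GGGNNTTCC (a kappaB site), and in Fkbp5 to CACGTG (an E-box, the kind of sequence that clock factors bind). No match overlapped another in these 4 sequences.
Cxcl9, chr5:92328080-92328329, minus strand: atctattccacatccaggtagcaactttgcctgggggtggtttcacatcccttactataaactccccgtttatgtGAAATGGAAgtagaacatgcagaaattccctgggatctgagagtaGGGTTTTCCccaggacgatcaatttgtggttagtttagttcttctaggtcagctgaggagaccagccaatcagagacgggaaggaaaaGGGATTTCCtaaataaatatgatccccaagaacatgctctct
Cxcl10, chr5:92348890-92349139, minus strand: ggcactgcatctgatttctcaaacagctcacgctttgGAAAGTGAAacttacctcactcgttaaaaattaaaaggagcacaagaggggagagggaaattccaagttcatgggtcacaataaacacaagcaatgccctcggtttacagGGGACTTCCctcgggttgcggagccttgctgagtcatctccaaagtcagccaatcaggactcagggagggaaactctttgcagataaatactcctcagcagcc
B2m, chr2:122147437-122147686, plus strand: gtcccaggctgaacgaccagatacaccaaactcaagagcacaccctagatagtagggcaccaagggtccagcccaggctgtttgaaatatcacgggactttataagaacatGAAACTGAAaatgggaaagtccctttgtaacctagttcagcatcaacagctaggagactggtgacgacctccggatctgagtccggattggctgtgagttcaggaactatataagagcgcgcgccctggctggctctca
Fkbp5, chr17:28486150-28486399, minus strand: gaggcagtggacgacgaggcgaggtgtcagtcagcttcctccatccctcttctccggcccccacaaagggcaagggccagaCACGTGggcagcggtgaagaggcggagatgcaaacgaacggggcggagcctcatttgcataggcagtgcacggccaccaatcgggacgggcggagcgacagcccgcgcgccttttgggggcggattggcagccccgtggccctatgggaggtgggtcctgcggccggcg
Cxcl9 and Cxcl10 were the chemokines with the greatest fall, B2m a widely expressed gene of antigen presentation that fell, and Fkbp5 one of the leading genes that rose.

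The Batf3 probe set itself gave no check of the genotype. Its level ran from 4.19 over a median of 4.30 to 4.54 in Batf3ko and from 4.22 over 4.49 to 5.11 in NOD, so the groups overlapped. The difference was -0.22 ± 0.12 (limma, adjusted p = 0.28). Its mean over the 12 arrays, 4.44, lay at percentile 39.4 of all genes. The sources used here do not place the probes relative to the altered part of the gene, and every direction that follows rests on the genotypes as labelled.

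In all, 1527 genes differed between Batf3ko and NOD islets at 8 weeks, which is 7.66% of the genes tested. Of these 645 were higher in Batf3ko (3.24%) and 882 lower (4.42%). The mice of each group did not overlap for 270 genes that were higher (1.35%) and 387 that were lower (1.94%), and 542 genes (202 higher, 340 lower) met both criteria. The sizes were lopsided. A fall of at least 1 on the log2 scale was found for 195 called genes, and of at least 2 for 47, while a rise of at least 1 was found for 4. The median called rise was 0.37 and the median called fall -0.58, against 0.05 for all genes. Leaving out NOD mouse 5 took the number of higher genes to 412. With each array centred on its own median, 1027 genes were higher and 811 lower, a share of 55.9% higher in place of 42.2%. Fitting these 12 arrays alone (the 12-array fit) gave 757 genes in place of 1527, and adding to that fit the mean level of acinar genes of each mouse as a covariate (the acinar fit) gave 234. List counts that moved by over 1.5 times in either fit are given beside the main count.

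**Figure D1:**
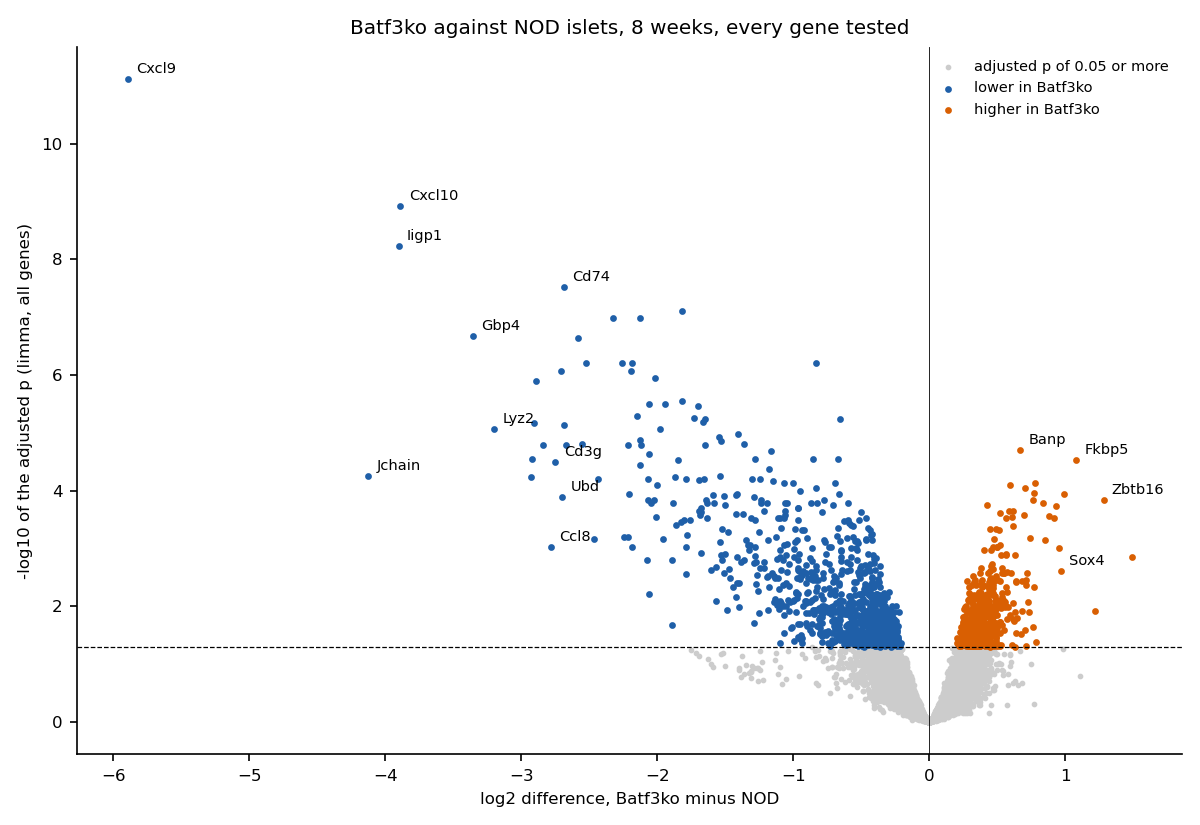
Each point is a gene, with the log2 difference Batf3ko minus NOD at 8 weeks on the x axis and -log10 of the limma adjusted p on the y axis; coloured points lie above the dashed line at an adjusted p of 0.05. The 882 genes lower in Batf3ko reach to -5.90 (Cxcl9), and the 645 higher genes stay within 1.49.

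The falls were led by genes of the interferon-gamma response. Cxcl9, a chemokine that binds Cxcr3 on T cells, had levels of 3.13, 3.64 and 3.86 (lowest, median and highest mouse) in Batf3ko and of 7.77, 9.35 and 10.67 in NOD. The groups were far apart, and the difference was -5.90 ± 0.34 (limma, adjusted p = 7.7e-12). No fold is given, since the table holds no detection call by which the low signal in Batf3ko could be told from background. Cxcl10, a ligand of the same receptor, ran from 4.10 to 5.04 in Batf3ko (median 4.51) and from 7.26 to 9.32 in NOD (median 8.59). It fell by 3.89 ± 0.28 (limma, adjusted p = 1.2e-09) with no overlap. Iigp1, an interferon-induced GTPase that acts against intracellular parasites, lay between 3.43 and 4.03 in Batf3ko and between 6.09 and 8.71 in NOD, and fell by 3.90. The guanylate-binding protein Gbp4 lay between 4.03 and 4.75 against 6.04 to 8.96, and fell by 3.36. The ubiquitin-like protein Ubd fell by 2.70, and its highest Batf3ko mouse (2.92) was just under its lowest NOD mouse (3.11).

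Of 16 measured interferon-gamma response genes, 13 fell and none rose, with a median of -2.16. Averaged over the list, Batf3ko mice had a level of 4.36 ± 0.05, NOD mice 6.45 ± 0.70 and Rag1ko mice 4.51 ± 0.09. All 6 Batf3ko mice lay between 4.26 and 4.40, below the lowest NOD mouse at 5.53. The members that did not pass were Cxcl11 (-0.19), Socs1 (0.06) and Ido1 (-0.11), named after their values were seen. Among 25 genes of the type I interferon response 15 fell and none rose (median -0.72), led by Ifi27l2a (-1.89), the nucleic acid sensor Zbp1 (-1.87) and Rtp4 (-1.55). Both lists hold genes that either interferon induces. In the acinar fit 11 of the 16 interferon-gamma genes and 6 of the 25 type I genes were called lower.

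Motif matches were counted in the same 250 bases over 19177 RefSeq promoters of 15614 measured genes. GAAANNGAA was found in 6.79% of all promoters, in 12.2% of those of genes called lower and in 5.71% of those called higher. It was present in 8 of 12 promoters of the interferon-gamma list. The site TTCNNNGAA, the core bound by STAT factors, was found in 6.55% of all promoters, in 7.2% of those called lower and in 5.38% of those called higher. For GGGNNTTCC the shares were 5.52%, 7.43% and 4.08%. A match describes letters in a window and not a bound site, and promoters of different starts of 1 gene share sequence.

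Leukocyte transcripts fell as a group. All 13 measured genes expressed across leukocytes were lower (median -2.07), including Ptprc (the common leukocyte antigen CD45, -2.43 ± 0.35), Cd52 (-2.90), the actin-bundling protein Lcp1 (-2.89) and Arhgdib (-2.55). Ptprc lay between 4.09 and 4.91 in Batf3ko and between 5.07 and 8.44 in NOD. In the acinar fit 6 of the 13 were called. In such bulk RNA, fewer cells of a type and less RNA per cell cannot be told apart. Averaged over these genes, the level was 4.61 ± 0.05 in Batf3ko mice, 6.51 ± 0.98 in NOD mice and 4.68 ± 0.08 in Rag1ko mice.

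The NOD mice were not alike. NOD mice 5 and 6 had the highest leukocyte levels (7.70 and 7.67) and NOD mouse 3 the lowest (5.32), while the Batf3ko mice spanned 4.51 to 4.66. The same 3 mice marked the ends of the NOD range in the T cell, B cell, class II and interferon-gamma lists. Over all genes called lower the median SD was 0.34 in NOD and 0.19 in Batf3ko. For genes called higher it was 0.17 and 0.16, and for all genes 0.18 in both groups. The SE and p-value of each gene rest on a spread shared by all groups of the fit. For the genes called lower they therefore do not reflect the wider spread in NOD.

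**Figure D2:**
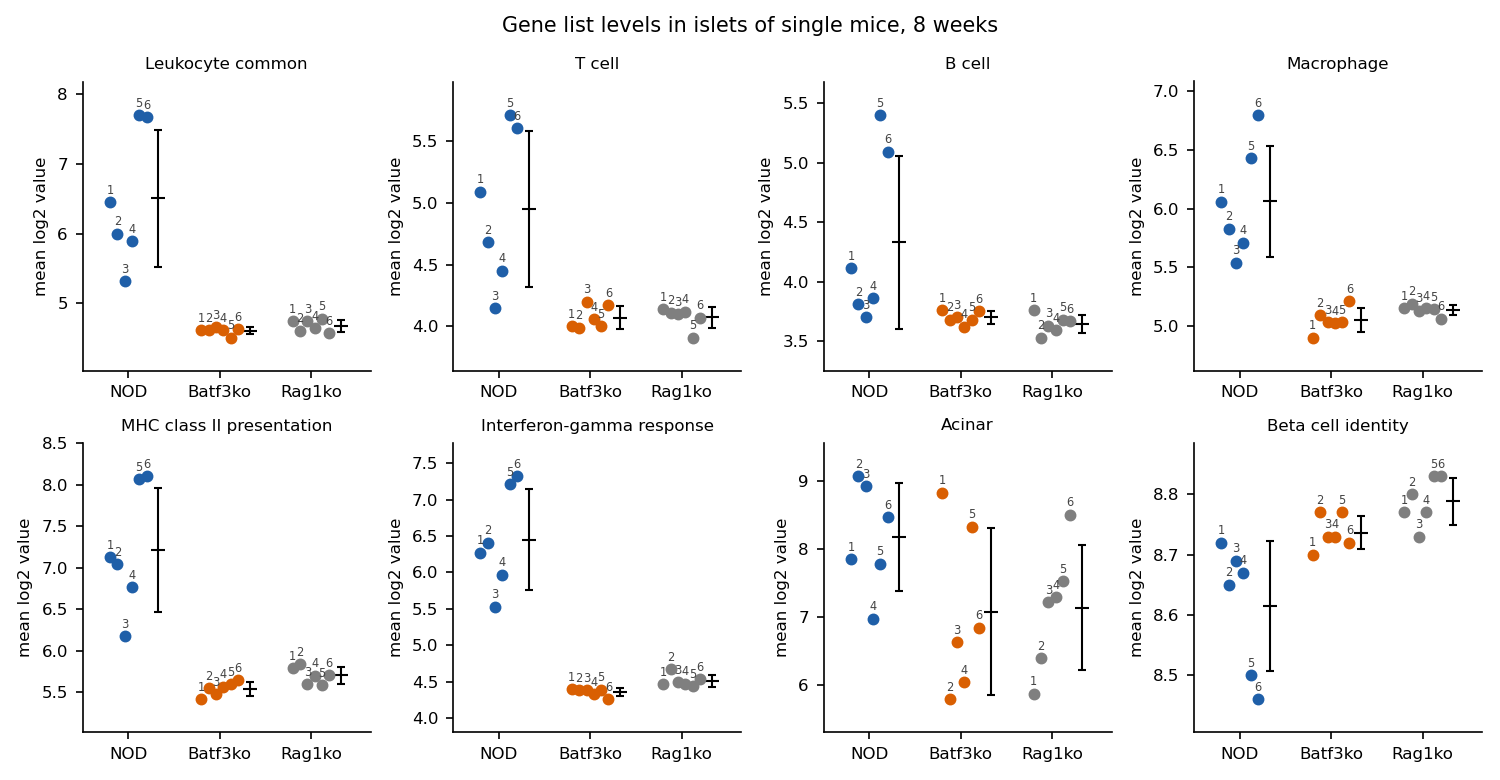
Each panel shows 1 gene list, with the mean log2 value of its genes on the y axis for single mice of 8 weeks (points numbered by mouse) in NOD, Batf3ko and Rag1ko; bars are the mean ± SD of 6 mice, and the y axes differ. NOD mice 5 and 6 are highest and NOD mouse 3 lowest in the leukocyte, T cell, class II and interferon-gamma panels, the Batf3ko and Rag1ko mice lie close together there, and the acinar panel spreads from 5.80 to 8.83 within Batf3ko.

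T cell genes fell in 12 of 19 measured members (median -0.61), and none rose. Cd3g, a chain of the T cell receptor complex, had levels of 2.60, 3.22 and 3.44 in Batf3ko and 4.25, 5.78 and 7.72 in NOD (lowest, median, highest), a difference of -2.75 ± 0.38 (limma, adjusted p = 3.2e-05). Cd3e fell by 1.85 with no overlap, and Cd3d by 1.96 with overlap. Thy1 fell by 2.07, with 1 Batf3ko mouse at 7.40, inside the NOD range of 6.40 to 9.15. Without NOD mouse 6 the T cell count was 7 of 19. Cytotoxic effector genes fell in 8 of 15 (median -0.56), led by the granule protein Nkg7 (-2.21) and the chemokine Xcl1 (-1.68), the ligand made by CD8 T and NK cells for cross-presenting dendritic cells. Regulatory and checkpoint genes fell in 6 of 12 (median -0.46), and in 3 of 12 without NOD mouse 5 or without NOD mouse 6. In the 12-array and acinar fits the falls were 4 and 3 for T cell genes, 6 and 1 for cytotoxic genes and 3 and 2 for regulatory genes. Ctla4, an inhibitory receptor of T cells, fell by 1.29 with no overlap (3.14 to 3.81 against 4.0 to 5.70).

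Among B lineage genes, Jchain, the joining chain of secreted IgM and IgA, ran from 2.97 over a median of 7.0 to 8.87 in NOD and from 2.19 over 2.51 to 2.89 in Batf3ko. The lowest NOD mouse was thus only just above the Batf3ko mice, and the difference was -4.13 ± 0.58 (limma, adjusted p = 5.6e-05). Of 17 B cell genes 4 fell (median -0.63), and the count was 8, 10 or 7 without NOD mouse 2, 3 or 4. Ly86, an accessory protein of a Toll-like receptor found on B cells and macrophages, fell by 2.06 and Cd72 by 1.0, both without overlap. Ms4a1 (CD20) stood at -1.10, and its call (limma, adjusted p = 0.043) ended without Batf3ko mouse 1, 2, 3, 4 or 6 or NOD mouse 1, 5 or 6, with a value of -0.70 without NOD mouse 5. Cd79b stood at -1.14 (limma, adjusted p = 0.084). In the plasma cell list 2 of 10 fell, Jchain and the transcription factor Irf4 (-0.76). That count was 1 without Batf3ko mouse 6 or NOD mouse 2, 5 or 6, and 4 without NOD mouse 3. The 12-array and acinar fits called 2 and 1 of the B cell genes and 1 and 1 of the plasma cell genes.

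Macrophage genes fell in 16 of 21 (median -0.96), and this count stayed at 16 whichever mouse was left out, while the acinar fit called 7. Lyz2, the lysozyme of macrophages and neutrophils, had levels of 5.51, 6.04 and 6.62 in Batf3ko and 7.56, 9.28 and 10.66 in NOD, with no overlap and a fall of 3.20 ± 0.40 (limma, adjusted p = 8.5e-06). Aif1 fell by 2.26, the complement component C1qc by 1.95 and Mpeg1 by 1.53, each without overlap. Of 12 neutrophil genes 1 fell, Lcn2 (-0.96), a secreted iron-binding protein that other cells also make, and its call ended without Batf3ko mouse 1, 2 or 3 or NOD mouse 4, 5 or 6. The 12-array fit called no neutrophil gene, and the list median was 0.07.

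Genes of the Batf3-dependent dendritic cell list fell in 7 of 15 (median -0.43). Ifi205 fell by 1.57, the cross-presentation factor Wdfy4 by 1.13, the transcription factor Irf8 by 1.07 and Cd8a by 1.03, and each of these 4 overlapped between the groups. Cd8a marks CD8 T cells as well, and Irf8 other myeloid and B cells. The surface markers most particular to these cells, named after their values were seen, were dim. Clec9a ran from 3.00 over 3.26 to 3.68 in Batf3ko and from 3.18 over 3.83 to 4.03 in NOD, at percentile 24.7 of all genes, with a difference of -0.43 (limma, adjusted p = 0.057). Xcr1, at percentile 21.6, stood at -0.12 (limma, adjusted p = 0.70). Other dendritic cell genes fell in 7 of 17 (median -0.39), including the costimulatory ligand Cd86 (-1.31) and the growth factor receptor Flt3 (-1.06), both without overlap. The 12-array and acinar fits called 2 and 1 genes of the Batf3-dependent list and 3 and 0 of the other dendritic cell list.

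Genes of both arms of antigen presentation fell. Of 9 MHC class II genes 8 fell (median -1.73). The invariant chain Cd74, which guides class II molecules to the endosome, had levels of 6.78, 7.32 and 7.47 in Batf3ko, 8.76, 9.88 and 10.87 in NOD, and 7.68 to 8.31 in Rag1ko. Its difference from NOD was -2.69 ± 0.23 (limma, adjusted p = 3e-08). The class II chains H2-Ab1, H2-Aa and H2-Eb1 fell by 2.58, 2.33 and 2.19. Of 14 class I genes 12 fell (median -0.63), whichever mouse was left out. B2m, the light chain of class I molecules, was the brightest of these, with levels of 9.60, 9.71 and 9.98 in Batf3ko and 10.82, 11.63 and 12.09 in NOD. It fell by 1.82 ± 0.16 (limma, adjusted p = 7.9e-08). The immunoproteasome subunits Psmb9 and Psmb8 fell by 1.82 and 1.64 and the peptide transporter Tap1 by 1.54, all without overlap. H2-Q4 (-1.28) belongs to a family of near-identical genes, so its probe set may read its neighbours as well. The acinar fit called 5 class II and 6 class I genes.

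Genes of soluble mediators and their receptors fell in part. Of 22 chemokines 12 fell and none rose (median -0.83). Beside Cxcl9 and Cxcl10 these included Ccl5, which attracts T cells and monocytes (-2.92), Ccl8 (-2.78) and Ccl19, the ligand that draws Ccr7-bearing cells into lymphoid tissue (-2.93). Ccl8 lay between 2.63 and 2.79 in Batf3ko and reached from 2.97 to 7.89 in NOD. Of 16 chemokine receptors 5 fell (median -0.49; 9 without NOD mouse 3). Cx3cr1 fell by 1.0, Cxcr6 by 0.86 and Cxcr3, the receptor of Cxcl9, by 0.83, where Cxcr3 lost its call without NOD mouse 1, 5 or 6 (-1.08 to -0.67 over all 12 fits). Of 23 cytokines 8 fell (median -0.20), among them lymphotoxin beta (Ltb, -1.54), Il1b (-1.36) and Ifng (-0.66). Ifng lay between 3.07 and 3.99 in Batf3ko and between 3.84 and 5.09 in NOD, so the groups overlapped, and its call ended without Batf3ko mouse 4 or NOD mouse 5 or 6 (-0.75 to -0.50). Of 22 cytokine receptors 12 fell, led by Il2rb (-1.48), and 1 rose, Il6ra. The 12-array fit called 6 cytokine receptors lower and the acinar fit 0, while both called Il6ra higher. The acinar fit called 3 chemokine receptors and 2 cytokines.

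Genes of the vessel wall, the matrix and the complement system moved in part. Of 12 adhesion and homing genes 6 fell (median -0.66), with the endothelial ligand Vcam1 at -1.76 and the leukocyte integrin chain Itgb2 at -1.69. Complement genes fell in 8 of 12 (median -1.15), including C1s1 (-1.79) and the inhibitor Serping1 (-1.66). Of 15 genes of fibroblasts and stellate cells 7 fell (median -0.34), including Vim (-1.68), Lum (-1.57) and Postn (-1.41). Without NOD mouse 5 or without NOD mouse 6 that count was 4, and the matrix proteoglycan Dcn (-1.89) lost its call in both cases (-2.39 to -1.67 over all 12 fits). Endothelial genes had a median of -0.03, and the 2 that fell, Eng (-0.37) and Kdr (-0.34), lost their calls without NOD mouse 6 (-0.42 to -0.30 and -0.39 to -0.30 over all 12 fits). Eng also lost it without Batf3ko mouse 1, 2, 3 or 5 or NOD mouse 1 or 5. The 12-array and acinar fits called 2 and 0 adhesion genes, 7 and 2 complement genes, 4 and 3 genes of fibroblasts and stellate cells, and no endothelial gene. None of 6 Schwann cell genes was called by limma, and none had an unadjusted p under 0.05.

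**Figure D3:**
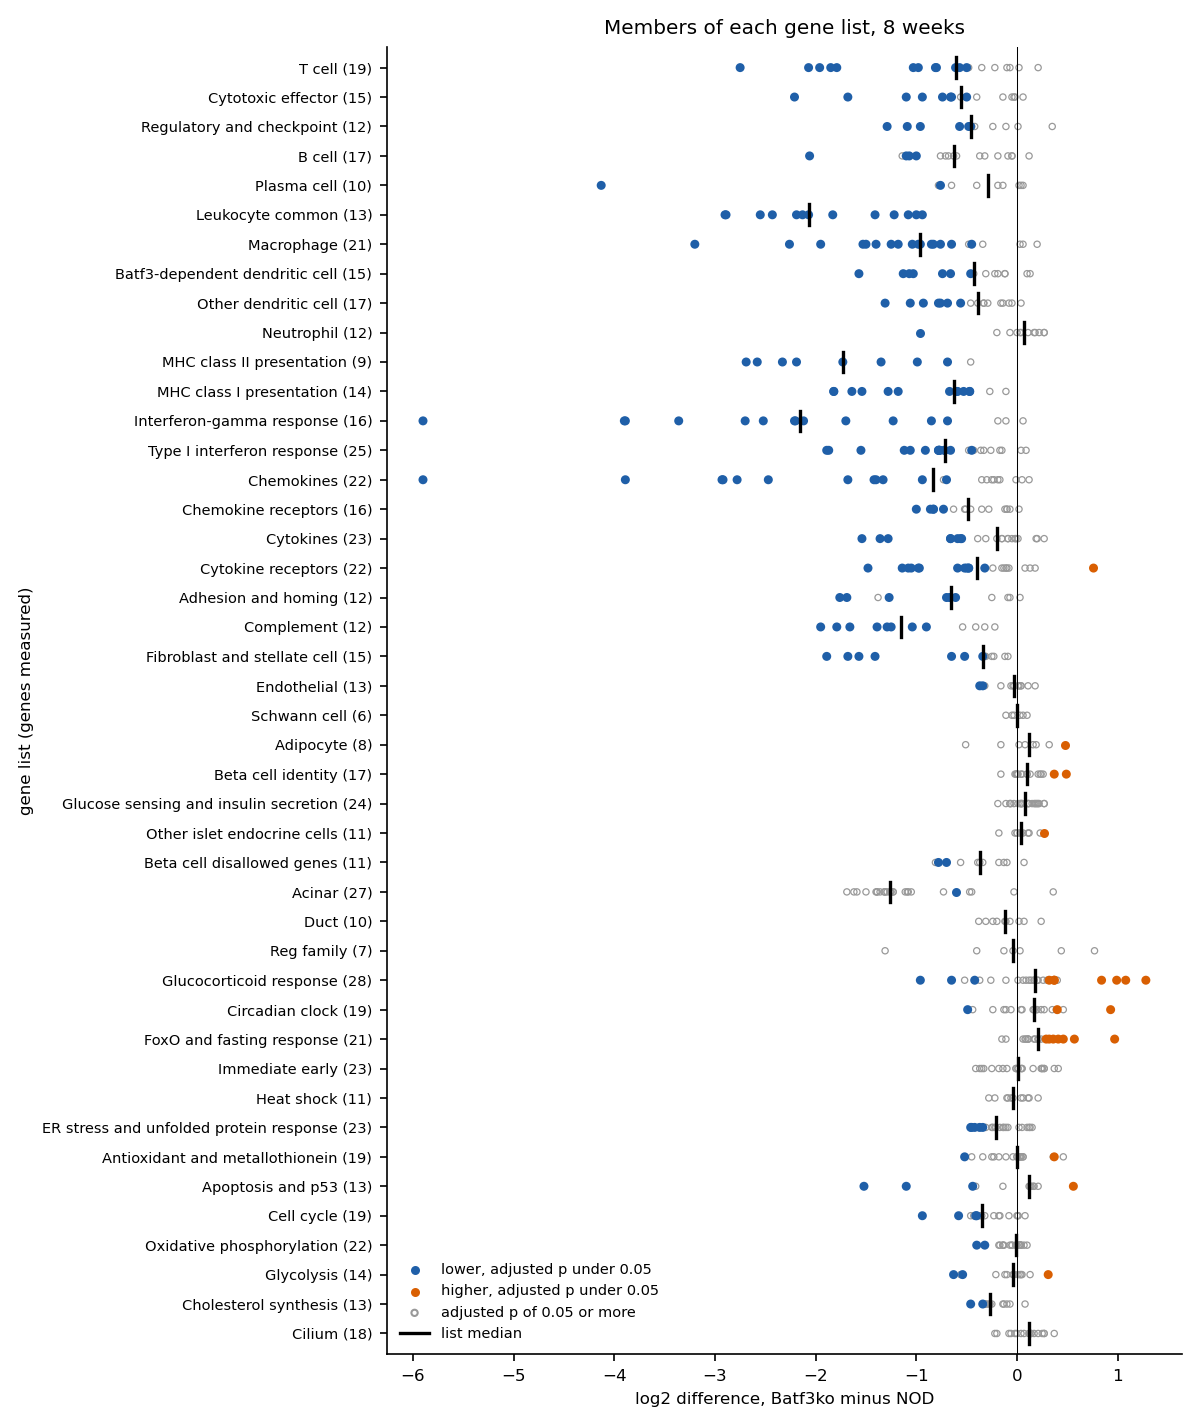
Each row is a gene list (number of genes measured in brackets) and each point a member, placed on the x axis by its log2 difference Batf3ko minus NOD at 8 weeks; filled points have a limma adjusted p under 0.05, open points do not, and the black bar is the list median. Filled points lie to the left in the immune lists except for Il6ra (0.76) among the cytokine receptors, while those of the FoxO list all lie to the right and those of the glucocorticoid list on both sides.

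The genes higher in Batf3ko were of other kinds and smaller in size. Of the 645, 97 rose by at least 0.5 and 548 by less. The 4 that rose by at least 1 were Zbtb16 and Fkbp5, described next, and probe sets named for 2 microRNA genes, both named after their values were seen. Mir7b had levels of 6.77, 7.11 and 7.64 in Batf3ko, 4.34, 5.75 and 7.29 in NOD and 8.17 to 9.04 in Rag1ko. Its rise over NOD was 1.49 ± 0.28 (limma, adjusted p = 0.0014) with overlap, and Batf3ko minus Rag1ko was -1.58. Mir670 rose by 1.22 (limma, adjusted p = 0.012), also with overlap. Such probe sets read total RNA over the hairpin and do not measure the mature microRNA.

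Zbtb16 (PLZF), a zinc finger transcriptional repressor, led the genes whose mice did not overlap. Its levels were 4.99, 5.23 and 6.39 in Batf3ko, 3.88, 4.03 and 4.41 in NOD and 4.09, 4.58 and 5.10 in Rag1ko. All Batf3ko mice lay above all NOD mice, and Batf3ko mouse 6 lay well above the others. The rise was 1.28 ± 0.20 (limma, adjusted p = 0.00015). Fkbp5, a co-chaperone that damps the glucocorticoid receptor and is itself induced by it, had levels of 7.25, 7.46 and 7.89 in Batf3ko, 6.13, 6.34 and 7.0 in NOD and 6.50, 6.82 and 7.33 in Rag1ko. It rose by 1.08 ± 0.15 (limma, adjusted p = 3e-05), again without overlap. Both genes, with the sulfotransferase Sult1d1 (0.99) and the actin-associated stress protein Fam107a (0.84), belong to a list of 28 genes known to respond to glucocorticoids.

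In that list 7 genes rose, 3 fell and 18 did not pass, with a median of 0.18 against 0.05 for all genes. The other members that rose were Klf9 (0.37), Mt1 (0.37) and Foxo3 (0.32), and Lcn2 (-0.96), Hsd11b1 (-0.65) and Pik3r1 (-0.42) fell. Of these, Klf9, Foxo3 and Pik3r1 were named after their values were seen. Hsd11b1, the enzyme that regenerates active glucocorticoid inside cells, lay between 2.87 and 3.48 in Batf3ko and between 3.52 and 4.37 in NOD, without overlap. It also lies among the 35 measured genes that follow Batf3 on chromosome 1. The list mean per mouse ran from 6.90 to 7.28 in Batf3ko and from 6.78 to 6.90 in NOD, with Batf3ko mouse 6 the highest. Without that mouse 4 of the 28 genes rose, and in the acinar fit 4 rose and none fell. In both cases the 4 were Zbtb16, Fkbp5, Sult1d1 and Fam107a, all leading rises, and no other member kept its rise. The call of Mt1 ended without Batf3ko mouse 1, 2 or 6 or NOD mouse 2, 3 or 6 (0.32 to 0.41 over all 12 fits), and that of Lcn2 without Batf3ko mouse 1, 2 or 3 or NOD mouse 4, 5 or 6 (-1.15 to -0.78). The choice of Zbtb16, Fkbp5 and Sult1d1 for this list was made with their rise known. The pattern ACANNNTGT, a loose form of the glucocorticoid receptor half-sites, was found in 4.95% of all promoters, 4.4% of those called higher and 7 of 38 promoters of the list. These 38 promoters belong to 25 genes. TTCNNNGAA was also found in 7 of them (6.55% of all promoters) and CACGTG in 6 (6.99% of all), so the higher share was not particular to ACANNNTGT.

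Clock genes moved in both directions. Cry2, a repressor in the core loop of the circadian clock, had levels of 8.13, 8.27 and 8.64 in Batf3ko, 7.04, 7.34 and 7.66 in NOD and 7.41, 7.60 and 8.45 in Rag1ko. It rose by 0.93 ± 0.15 (limma, adjusted p = 0.00018) without overlap against NOD. Nr1d2, a nuclear receptor of the accessory loop, rose by 0.40, and Cry1 fell by 0.49. The call of Nr1d2 ended without Batf3ko mouse 1, 2, 3 or 6 or NOD mouse 1, 2, 3 or 6 (0.37 to 0.48 over all 12 fits), and that of Cry1 without Batf3ko mouse 2 or 4 or NOD mouse 3 or 6 (-0.55 to -0.35). Nr1d1 stood at 0.46 (limma, adjusted p = 0.061), and 16 of the 19 measured clock genes did not pass. The acinar fit called 1 clock gene higher, and neither it nor the 12-array fit called one lower. The labels give no time of day for islet collection. The E-box CACGTG was found in 6.99% of all promoters and in 7.67% of those called higher.

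Of 21 genes of the FoxO and fasting response 7 rose and none fell (median 0.21). The count was 4 in the 12-array fit and 1 in the acinar fit, where only Sox4 was called. Sox4, a transcription factor of endocrine development, had levels of 6.30, 6.52 and 6.78 in Batf3ko and 5.06, 5.52 and 6.00 in NOD. Its rise was 0.97 ± 0.20 (limma, adjusted p = 0.0025) without overlap. Fbxo32, a ubiquitin ligase subunit induced in fasting, rose by 0.57, the cyclin Ccng2 by 0.46, Cited2 by 0.41 and the insulin receptor gene Insr by 0.36, where Insr lost its call without Batf3ko mouse 2, 3, 4 or 5 or NOD mouse 1, 5 or 6 (0.29 to 0.42). Foxo1 and Foxo3 themselves rose by 0.29 and 0.32, named after their values were seen. The list mean was 6.19 to 6.30 in Batf3ko, 5.91 to 6.07 in NOD and 6.00 to 6.30 in Rag1ko. Sox4 was put in this list with its rise known.

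The leading rises also held single receptor and transporter genes. P2ry1, a receptor for extracellular ADP, lay between 8.06 and 8.92 in Batf3ko and between 7.25 and 7.84 in NOD, and rose by 0.96. Il6ra, the binding chain of the interleukin-6 receptor, had levels of 8.40, 8.47 and 8.58 in Batf3ko, 7.48, 7.67 and 8.09 in NOD and 7.64 to 8.35 in Rag1ko. Its rise of 0.76 ± 0.12 (limma, adjusted p = 0.00015) stood beside falls of 12 other cytokine receptors, of which the 12-array fit called 6 and the acinar fit none. Abca1, which exports cholesterol from cells, rose by 0.78, the amino acid transporter Slc38a2 by 0.63 and the cation channel Trpc4 by 0.75. Npy4r, the receptor for pancreatic polypeptide, rose by 0.62 at a level (3.26 against 2.64) near the bottom of the scale.

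The other leading rises had various known roles. The fructosamine kinase Fn3k, which removes sugar from glycated proteins, rose by 0.78, and the peroxisome protein Pex11a by 0.85. The retinoid-binding protein Rbp7 rose by 0.88, the podosome scaffold Sh3pxd2a by 0.92 and the diacylglycerol kinase Dgke by 0.72. Cys1, which encodes the cilium protein cystin, rose by 0.68. The ubiquitin ligase adaptor Klhl24 (0.70), the nuclear protein Banp (0.67) and the immediate early gene Arc (0.62) also rose. Fam135b and Ccdc162 rose by 0.73 and 0.63. Lancl1, a glutathione-binding protein, ran from 7.75 over 7.99 to 8.14 in Batf3ko and from 7.14 over 7.26 to 7.45 in NOD, a rise of 0.70 ± 0.11 (limma, adjusted p = 0.00026). All 40 leading genes, 24 higher and 16 lower, kept their calls whichever of the 12 mice was left out. They had been chosen as called, without overlap and with the greatest differences, so few lost calls could be awaited.

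**Figure D4:**
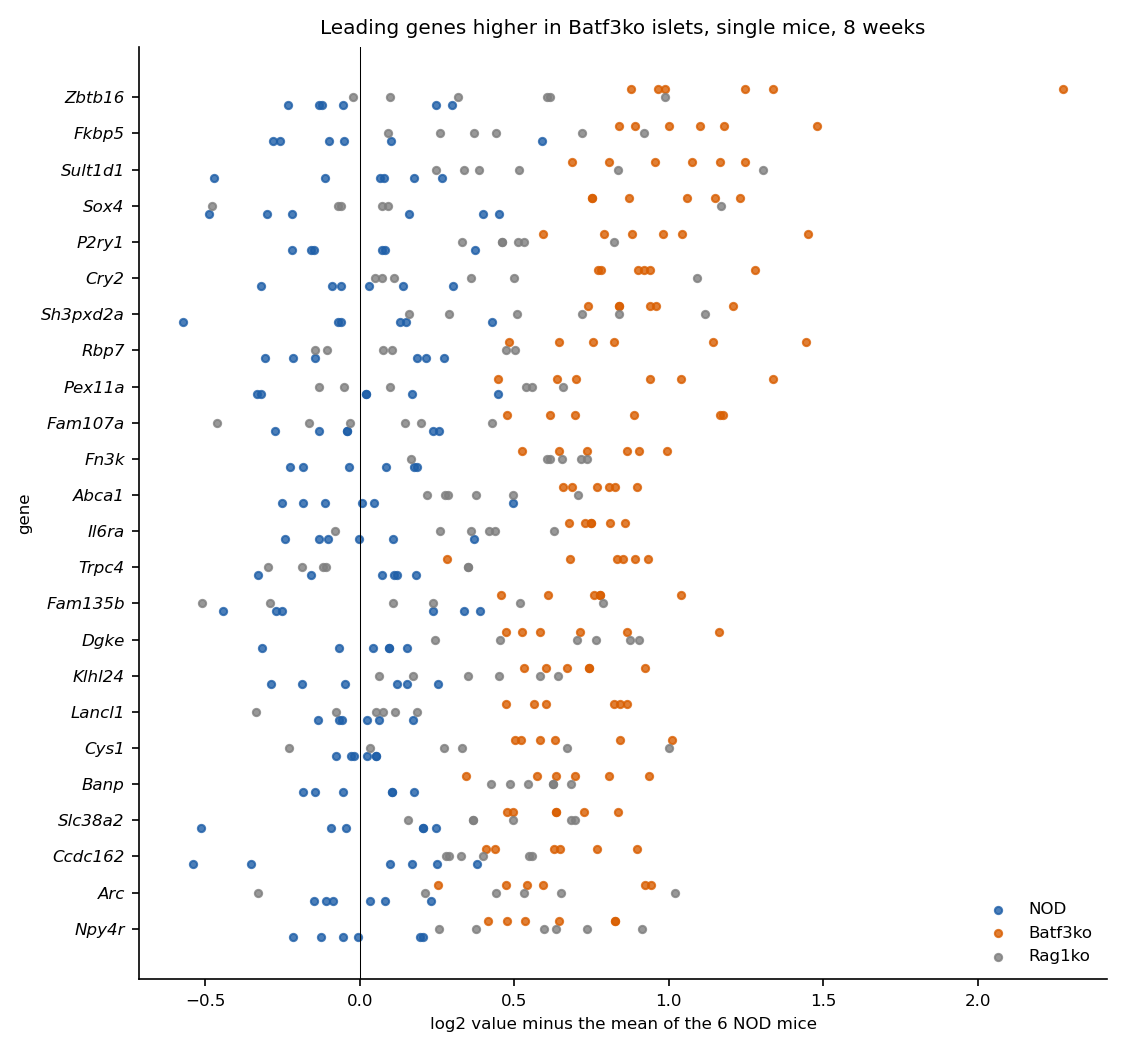
Rows are the 24 leading genes higher in Batf3ko islets at 8 weeks, and points are single mice of NOD, Batf3ko and Rag1ko, placed on the x axis by their log2 value minus the mean of the 6 NOD mice. No Batf3ko mouse overlaps NOD, which the choice of these genes required, while the Rag1ko mice lie with NOD for Fam107a, Trpc4 and Lancl1 and with Batf3ko for Dgke, Banp and Npy4r.

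Rag1ko mice took different positions for these genes. The comparisons of both genotypes with NOD share the NOD mice, and those of Batf3ko with NOD and with Rag1ko share the Batf3ko mice, so values are set side by side only. Between Batf3ko and Rag1ko 0.507% of all genes were called at 8 weeks. For Lancl1 the Rag1ko level was 7.28 ± 0.19, as in NOD (7.28 ± 0.11), and Batf3ko was higher than Rag1ko by 0.69 (limma, adjusted p = 0.0023). Fam107a and Trpc4 were higher in Batf3ko than in Rag1ko by 0.81 and 0.75 (limma, adjusted p = 0.002 and 0.0054), Rbp7 by 0.74 (limma, adjusted p = 0.014), and Sox4 and Zbtb16 by 0.85 each (limma, adjusted p = 0.044 for both). For Dgke, Banp and Npy4r, Batf3ko minus Rag1ko was 0.06, 0.10 and 0.03, and NOD minus Rag1ko was -0.66, -0.57 and -0.59. Fkbp5, Cry2, P2ry1, Abca1 and Il6ra had Rag1ko means between those of the other groups. Among the 16 leading falls the Batf3ko and Rag1ko means differed by at most 0.69 in size, for Cd74 (-0.69).

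Few beta cell genes were called. Of 17 identity genes 2 rose and none fell (median 0.10). Rfx6, a transcription factor of islet development, had levels of 9.36, 9.56 and 9.64 in Batf3ko and 8.86, 9.08 and 9.11 in NOD. It rose by 0.49 ± 0.12 (limma, adjusted p = 0.012) without overlap, and Glis3 rose by 0.37 with overlap. The acinar fit called 1 of the 17. Batf3ko mice had a list mean of 8.74 ± 0.03, NOD mice of 8.62 ± 0.11 and Rag1ko mice of 8.79 ± 0.04. NOD mice 5 and 6, which had the highest leukocyte levels, had the lowest beta cell levels (8.50 and 8.46), and the part of islet share in this was not tested. None of 24 genes of glucose sensing and insulin secretion was called by limma (median 0.08), while 5 had an unadjusted p under 0.05. Slc30a8, the zinc transporter of insulin granules, stood at 0.27 (limma, adjusted p = 0.11). In the list of other endocrine cells Ttr rose by 0.27, a call that ended without NOD mouse 5 or 6 (0.22 to 0.29 over all 12 fits). Neither the 12-array fit nor the acinar fit called a gene of that list.

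Stress and metabolic lists showed a few calls. Genes of the unfolded protein response fell in 5 of 23 (median -0.21; 8 without Batf3ko mouse 4 or without NOD mouse 5), and none rose. Dnajb9, a chaperone of the endoplasmic reticulum, lay between 10.13 and 10.37 in Batf3ko and between 10.55 and 10.80 in NOD, and fell by 0.46 ± 0.08 (limma, adjusted p = 0.00068). Its level in Rag1ko was 10.57 ± 0.14, and Pdia4 fell by 0.42 with a Rag1ko level (9.29 ± 0.20) like that of NOD (9.30 ± 0.15). Acinar and plasma cells also make these chaperones in quantity. Dnajb9 stood at -0.46 as well with the acinar mean as a covariate (limma, adjusted p = 0.028), but the acinar fit called only 1 of the 23 genes of the list. The part of plasma cells was not tested. The inflammatory caspases Casp1 and Casp4 fell by 1.52 and 1.10, while Trp53inp1, a p53 target, rose by 0.56. Glucose transporter Slc2a1 fell by 0.63 and Pfkp by 0.54, both without overlap, and the muscle-type phosphofructokinase Pfkm rose by 0.31, a call that ended without Batf3ko mouse 1 or NOD mouse 2 or 6 (0.28 to 0.34 over all 12 fits). Of 13 apoptosis and p53 genes, the caspases among them, 3 fell and 1 rose. The 12-array and acinar fits called 1 and 1 of these lower, and 1 and 0 higher. Of 14 glycolysis genes 2 fell and 1 rose, and these fits called 1 and 1 lower, and 1 and 0 higher. None of the lists of 23 immediate early, 11 heat shock and 18 cilium genes held a call by limma, and 3, 1 and 4 of their members had an unadjusted p under 0.05. Arc and Cys1, which rose, are in none of these lists.

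Exocrine RNA differed between mice and moved with the comparison. Acinar genes had a median of -1.26, but 1 of 27 was called, the transcription factor Bhlha15 (-0.61), named after its value was seen. The acinar mean ran from 5.80 to 8.83 in Batf3ko and from 6.98 to 9.07 in NOD, so the groups overlapped widely. Without Batf3ko mouse 1, which had the highest acinar level of its group, 15 of the 27 were called lower; 7 were without Batf3ko mouse 5, 3 without NOD mouse 4, and 0 without Batf3ko mouse 2, 3, 4 or 6 or NOD mouse 2, 3 or 6. In the acinar fit 20 of the 24 leading rises and 15 of the 16 leading falls were still called. Fam135b, Slc38a2, Ccdc162, Arc and Ccl8 were not. Duct genes (median -0.12) and Reg genes (-0.04) had no call by limma, and 3 of 10 and 1 of 7 had an unadjusted p under 0.05.

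Genes next to Batf3 on chromosome 1 were examined because a targeted allele can carry linked sequence of its strain of origin. Up to 50 measured genes on each side were taken in the order of the annotation. Only 35 follow Batf3 on 1 side, which left 85 genes. Of these 85, 4 rose and 5 fell (10.6%, against 7.66% of all genes and 9.33% of the 1126 measured genes of chromosome 1). Of the nearest 20 measured genes 1 was called, the acyltransferase gene Lpgat1. It lay between 7.57 and 7.84 in Batf3ko and between 7.15 and 7.42 in NOD, and rose by 0.40 ± 0.07 (limma, adjusted p = 0.0011). At 6 weeks its difference was 0.39 (limma, adjusted p = 0.077). The other called genes were A330023F24Rik (a long noncoding RNA, 0.69), the nuclear receptor Esrrg (0.46), Capn8 (0.29), Hsd11b1 (-0.65), Traf3ip3 (-0.55), Cd34 (-0.48), Aida (-0.44) and Rrp15 (-0.39). Calls ended on leaving out any of 11 mice for Capn8 (0.23 to 0.36 over all 12 fits), 7 for Traf3ip3 (-0.67 to -0.37), 7 for Cd34 (-0.55 to -0.38) and 6 for Rrp15 (-0.47 to -0.30). Both genes nearest to Batf3 on 1 side, Fam71a and the stress-induced transcription factor Atf3, were not called at 8 weeks (-0.24 and 0.25), but were called lower at 6 weeks (-3.27 and -2.91, limma, adjusted p = 5.5e-08 and 0.0012). They were named after their values were seen.

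At 6 weeks, in other mice, 0.973% of all genes were called between Batf3ko and NOD, with 3 mice in each group. The interferon-induced genes already differed. Cxcl9 stood at -4.54 (limma, adjusted p = 2.9e-06), Iigp1 at -3.07, Cxcl10 at -2.94, Gbp4 at -2.06 and Cd74 at -1.83, all called. The other 11 leading falls ranged from -0.20 (Lcp1) to -1.84 (Ccl5) and did not pass. Of these, Ccl5 (5.13 to 5.27 against 6.74 to 7.28), BC023105, Plbd1, Dnase1l3, Cd52, Cd3g and Ubd did not overlap between the groups. Lcp1, Jchain, Lyz2 and Ccl8 overlapped. The share of all genes without overlap at 6 weeks was not counted. With 3 mice in each group, such separation can also arise by chance. The leading falls had been chosen for their difference at the later age. The lack of overlap at 6 weeks is therefore a description only. Of the 24 leading rises, Lancl1 was also called higher at 6 weeks, by 0.85 (limma, adjusted p = 0.0047), and Zbtb16 was called lower, at -1.19 (limma, adjusted p = 0.032). Lancl1 lies on chromosome 1, as Batf3 does, but not among the neighbours examined, and the part of linked sequence was not tested. Cry2 stood at -0.81 (limma, adjusted p = 0.058) and Arc at -0.69.

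The difference between the ages was tested in the same fit. It was called for 1.89% of all genes, and for 17 of the 24 leading rises. These genes were chosen for a large difference at 8 weeks, so the count is a description. The change was 2.47 ± 0.34 for Zbtb16 (limma, adjusted p = 0.00017), 1.74 for Cry2 and 1.51 for Fkbp5, and -0.15 for Lancl1 (limma, adjusted p = 0.70). Of the leading falls only Lcp1 passed (-2.70 ± 0.55, limma, adjusted p = 0.012). Some stress-responsive genes, named among their lists, were also called lower at 6 weeks and not called at 8 weeks. The heat shock gene Dnajb1 stood at -2.05 at 6 weeks (limma, adjusted p = 1e-05) and at 0.11 at 8 weeks, and the immediate early gene Nr4a1 at -2.25 (limma, adjusted p = 0.0029) and 0.37. The part of these responses in the opposite values of Zbtb16 and Cry2 was not tested.

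**Figure D5:**
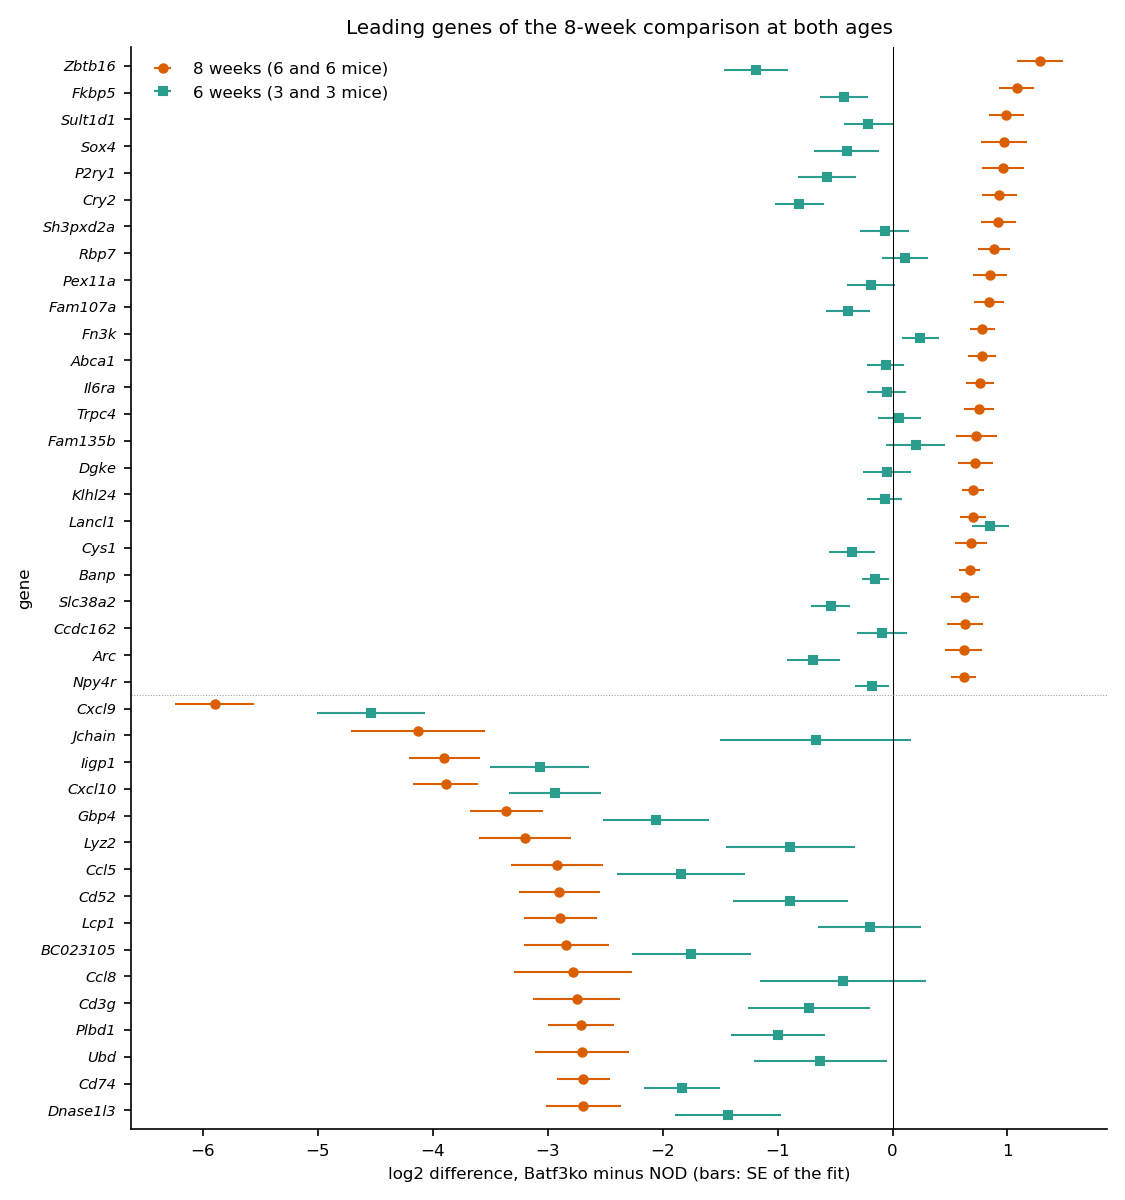
Rows are the 24 leading rises and, under the dotted line, the 16 leading falls of the 8-week comparison; points give the log2 difference Batf3ko minus NOD at 8 weeks (circles, 6 and 6 mice) and at 6 weeks (squares, 3 and 3 mice), with bars for the SE of the limma fit. Lancl1 is higher at both ages, Zbtb16 lies at 1.28 and -1.19, and Cxcl9, Iigp1 and Cxcl10 lie far below 0 at both ages.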

How the data were processed

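Islet total RNA was read on the Mouse Gene 1.0 ST array, per the labels. The deposited values are log2 values that the authors normalized with RMA in Arraystar, per the series text; the submitters' processing notes also name Affymetrix Expression Console and mm9, without a role or version. The table holds 30177 probe sets and 27 arrays. Of the probe sets 21789 name 1 gene symbol, 1621 several and 6767 none in the platform annotation, and only the first kind was used. For 999 genes with more than 1 probe set, that of highest mean level was kept. Transcripts read by shared probe sets (Ins1 among them) were not analysed here. The arrays of 6 and 8 weeks follow different distributions, so levels were compared within an age.

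R 4.3.3 and limma 3.58.1 fitted 1 mean for each of 6 groups over 27 arrays (21 residual and 5.524 prior degrees of freedom), with Benjamini-Hochberg adjustment over all 19938 genes at 0.05. The script was tested on simulated data with an equal spread in all groups, unlike the wider NOD spread of the genes called lower. Lists are described by counts and medians, with no test of a list. Named genes are Batf3, the hormone genes, and up to 5 members of each of 44 lists with the greatest difference. The 24 highest and 16 lowest differences among called genes whose mice do not overlap are named (without predicted genes, clones, microRNAs and receptor segments). So are called genes among up to 50 measured genes on each side of Batf3. Members and lists were chosen with earlier results of these data known. Promoters, gene order and names come from RefSeq (GRCm38.p6). Alternatives tried were other sets of arrays, a replicate block, an acinar covariate, a filter on dim genes, other normalizations, other variance models, the mean of probe sets and leaving out each mouse. Replicate numbers were checked for pairing, and the labels name no batch.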

Additional observations from a re-analysis of the deposited data

Results flagged for a closer look

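Single mice stood apart from their group of 6 (by Dixon's criterion, the gap to the next mouse over the range) in 6 of 170 groups examined, where chance gives about 1 in 20. Batf3ko mouse 6 had the highest level of Zbtb16 (6.39, the others 4.99 to 5.45) and of Cry2 (8.64, the others 8.13 to 8.30). Batf3ko mouse 2 was lowest for Cd3g (2.60) and Batf3ko mouse 3 for Cd74 (6.78). Among list means, Batf3ko mouse 5 was lowest for leukocytes (4.51) and Batf3ko mouse 1 for endothelium (5.93). Without Batf3ko mouse 6, Zbtb16 and Cry2 kept their calls.

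The difference between Batf3ko and NOD changed from 6 to 8 weeks for 18 leading genes by limma's test of that change. The greatest upward changes were those of Zbtb16 (2.47), Cry2 (1.74), P2ry1 (1.53), Fkbp5 (1.51), Sox4 (1.37) and Arc (1.31). Next came Fam107a (1.23), Sult1d1 (1.20), Slc38a2 (1.17), Pex11a (1.04) and Cys1 (1.04). At 6 weeks all of these genes had a lower mean in Batf3ko than in NOD, so their difference changed sign. Smaller changes were those of Sh3pxd2a (0.99), Abca1 (0.84), Banp (0.82), Il6ra (0.81), Npy4r (0.80) and Klhl24 (0.77). Lcp1 changed by -2.70. The 6-week groups held 3 mice each, and the genes had been chosen by their 8-week difference.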

How the results depend on the processing

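The count of 1527 genes (645 higher, 882 lower) was 757 (275 and 482) with only the 12 arrays. On those 12 it was 475 (116 and 359) with a replicate block and 234 (62 and 172) with the acinar covariate. These fits hold fewer arrays, and those with the block or the covariate also hold added terms. Same-numbered mice had correlations of -0.10 to 0.07, so the numbers do not pair the mice. Median-centred arrays gave 1838 genes, 1027 of them higher. Leaving out 1 mouse gave 1101 to 1561 genes, 412 to 659 higher (412 without NOD mouse 5) and 663 to 966 lower. The other alternatives gave 1134 to 1544 genes. With the mean of a gene's probe sets Fam135b lost its call. None of 253 named genes changed sign under an alternative while called in that fit or in the main one. Sign changes of genes called in neither were not counted. Over the 5511 comparisons 346 calls were lost and 90 gained. Dim genes (Npy4r, Clec9a, Xcr1) and the lower number of mice at 6 weeks limit what could be seen.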
